A study of Homo sapiens with 12 samples.

Results

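MICAL3 was the gene with the largest number of reproducible QKI peaks in the series, and its clusters are described here by position, spacing and enrichment in each library. Its members were the 107 and 77 clusters annotated with the name MICAL3 in the 2 anti-QKI libraries, and the 36, 48, 19 and 24 clusters of the 4 anti-MYC libraries that overlapped one of them on the same strand by 1 base or more. That made 311 of the 1620964 clusters in the 6 immunoprecipitation libraries. The gene was chosen on its peaks in the endogenous and wild type libraries, so its levels there are a description, also where they stand beside the mutant. No cluster named MICAL3 carried another gene name, and no library listed a cluster on the opposite strand between the first and the last of them.

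The assay was eCLIP, in which proteins are crosslinked to RNA by ultraviolet light, immunoprecipitated, and the RNA held by them is sequenced together with an input of matched fragment size. Per the labels all 12 libraries came from the human embryonic kidney line HEK293xT (293T in the protocols), and 6 of them were immunoprecipitations, with 2 libraries in each of 3 groups. The endogenous group was unmodified cells precipitated with an anti-QKI antibody. The wild type group was transiently transfected with a plasmid for myc-QKI-5 and precipitated with an anti-MYC antibody, and the mutant group was treated in the same way with myc-QKI-5 carrying K120A and R124A. Transfected cells received 10 µg of plasmid and were kept for 72 hours, and all cells were crosslinked at 254 nm with 400 mJ/cm2. They were not described as lacking their own QKI, so the tagged proteins were measured in cells that may also hold the endogenous protein. Antibody and transfection both differ between the endogenous and the tagged groups and cannot be told apart. Whether both libraries of a group were grown as separate cultures is not stated in the labels, so every p-value rests on a spread that may be technical.

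The series design text speaks of stem cells during cardiomyocyte differentiation, which the sample labels do not. Of 8 pluripotent stem cell markers 1 had a cluster in the endogenous libraries, with POU5F1, NANOG and LIN28A at 0, and their summed cluster counts were 23 and 10. Of 8 cardiomyocyte markers 4 had one, with TNNT2, MYH6, MYH7 and MYL7 at 0 and sums of 100 and 50. Most of these came from RYR2 (66 and 29) and ACTN2 (32 and 18). Of 7 genes typical of HEK293 cells 5 had one, with LHX1 and GATA3 at 0 and sums of 118 and 69, mostly from LIN28B (96 and 55). With so few genes behind each sum, the counts do not identify the cells, and the sample labels were followed.

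QKI is an RNA-binding protein of the STAR family that recognises ACUAA-type motifs, and its nuclear form QKI-5 regulates splicing of exons from binding sites in the neighbouring introns. MICAL3 encodes a large flavoprotein monooxygenase that oxidises methionines of actin, and it takes part in the docking and fusion of secretory vesicles with RAB6, RAB8 and the scaffold ELKS. The gene is transcribed from the minus strand of chromosome 22, so higher coordinates lie nearer its 5′ end. All coordinates are hg19 and count from 1.

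MICAL3 clusters reached from chr22:18272556-18272562 in the 3′ UTR to chr22:18466425-18466486 in a distal intron, a span of 193931 bases. Most were intronic. In endogenous library 1 the leading annotation class was distal intron for 69 clusters, proximal intron for 23, the zone at a 5′ splice site for 5, the zone at a 3′ splice site for 2, coding sequence for 7 and 3′ UTR for 1. In endogenous library 2 the same classes held 67, 5, 0, 1, 3 and 1 clusters. Enriched clusters, those at or above 3 in both the log2 fold over input and the −log10 p that the authors give, were in distal introns for 52 of 79 in library 1 and 49 of 53 in library 2.

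Enrichment was frequent among MICAL3 clusters of the endogenous and wild type libraries. In endogenous library 1, 79 of 107 were enriched (73.8%, exact Clopper-Pearson interval 64.4 to 81.9), against 4.22% of all clusters in that library. In endogenous library 2 it was 53 of 77 (68.8%, 57.3 to 78.9), against 5.39%. In wild type library 1, 26 of 36 were enriched (72.2%, 54.8 to 85.8) against 2.07%, and in wild type library 2, 39 of 48 (81.2%, 67.4 to 91.1) against 1.89%. None of the 19 clusters of mutant library 1 was enriched, which allows a share of up to 17.6%, against 0.0405% over that library. None of the 24 in mutant library 2 was enriched either, which allows up to 14.2%, against 0.304%. The endogenous and wild type shares were part of how the gene was chosen. The mutant shares were not, and at these small cluster numbers a share as low as the library background cannot be told from 0.

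The median log2 fold of MICAL3 clusters was 5.51 and 5.16 in the endogenous libraries, 7.02 and 7.59 in wild type, and 0.87 and 1.19 in the mutant. The maximum was 9.18 and 9.48 for the endogenous pair and 9.54 and 9.50 for the wild type pair. In the mutant it was 3.07 in library 1, with a −log10 p of 1.77, and 2.28 in library 2. The 2 mutant libraries lay below the other 4 in both measures. The −log10 p stood at its upper limit of 400 for 3 and 3 clusters in endogenous, 7 and 13 in wild type and 0 and 0 in the mutant.

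**Figure D1:**
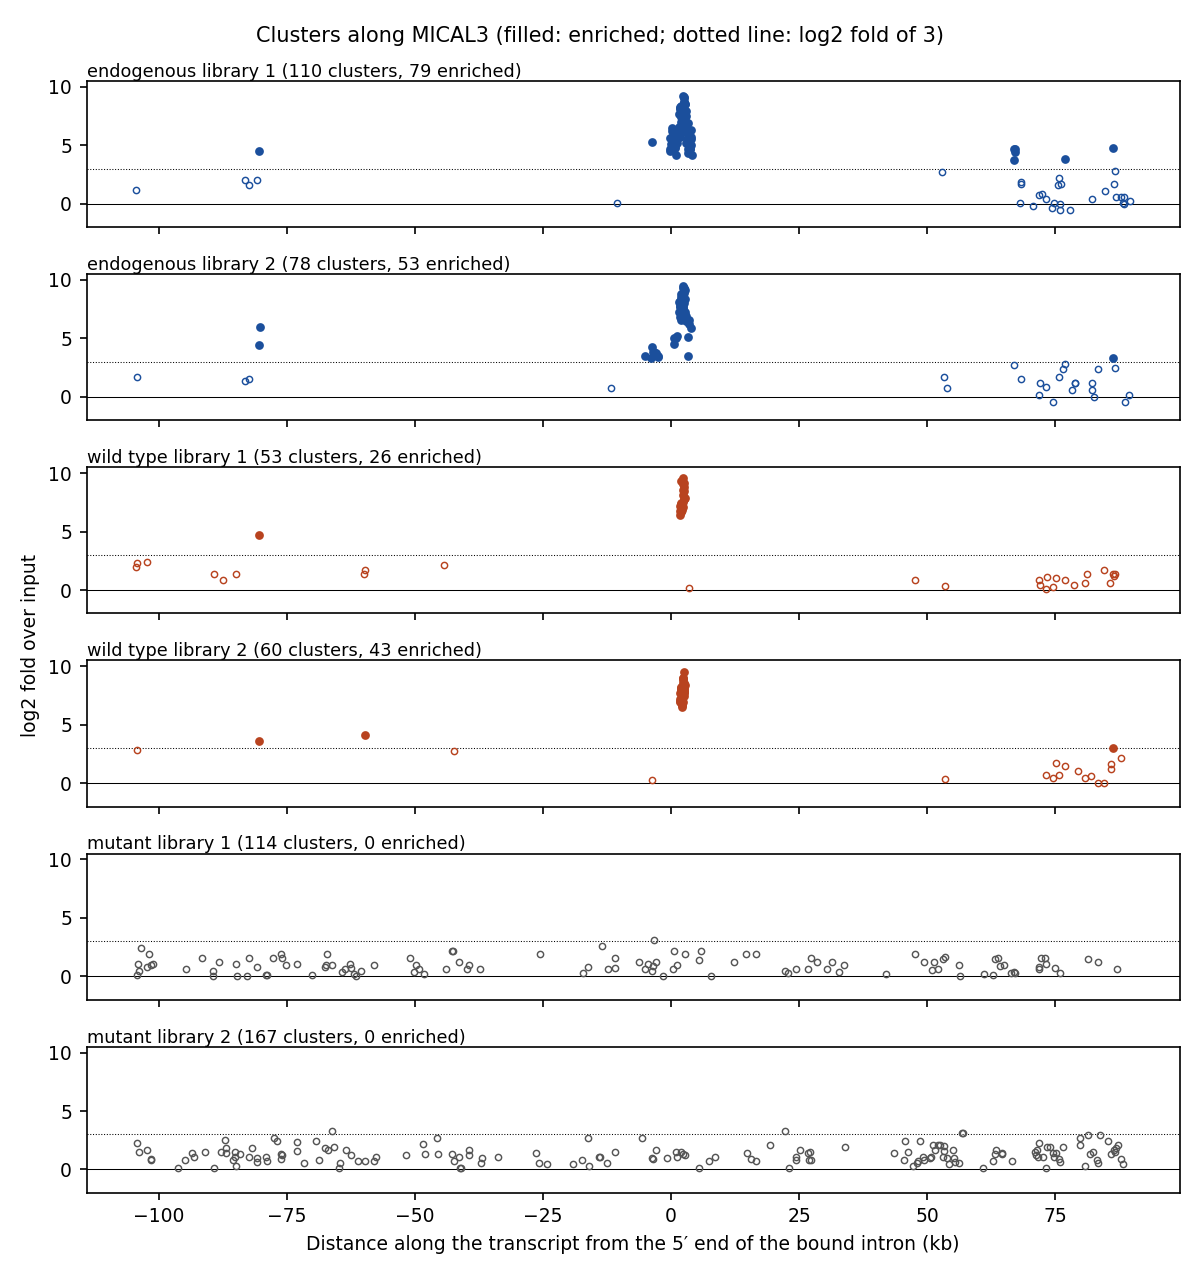
Each point is a listed cluster within the MICAL3 span, placed by its distance in kb along the transcript from the 5′ end of the bound intron (x) and its log2 fold over input (y), with 1 panel for each library. Filled points are enriched and the dotted line is a log2 fold of 3. Endogenous and wild type points above the line pile up within a few kb of 0, while the 114 and 167 mutant points are spread over the whole span.

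Enriched binding was concentrated in a stretch of 4371 bases, chr22:18358035-18362405. It held the whole of an intron, chr22:18358322-18362111, which is 3790 bases long, and the 109-base exon downstream of it, chr22:18358213-18358321. These edges were worked out from the region classes the authors gave each cluster, since no genome of the build was used. They were picked for the best match to those classes, which was reached for 110 of 110 clusters compared. The match is therefore the fit itself and no separate check. Clusters of the stretch beyond the intron's 5′ end were not compared. Of 10 kb windows along the gene, the one from 18352556 to 18362555 was the most crowded, with 71 clusters in endogenous library 1 and 42 in endogenous library 2, every one of them enriched. The window at the 3′ end of the gene, from 18272556, had 11 clusters in endogenous library 1 and 8 in library 2, with 1 enriched in each. The window at the 5′ end, from 18462556, had 1 cluster in each endogenous library, at log2 folds of 1.16 and 1.68.

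Inside this intron the endogenous libraries had 64 and 41 clusters, all enriched. Counting every listed cluster of the span, the wild type libraries had 26 and 40 there, of which 25 and 40 were enriched, and the mutant libraries had 4 and 5 with 0 enriched. The intron held 58.2% and 52.6% of the span's clusters in endogenous and 49.1% and 66.7% in wild type. In the mutant it held 3.51% and 2.99%. Enriched clusters outside the intron numbered 15 and 12 in endogenous, 1 and 3 in wild type and 0 and 0 in the mutant.

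The endogenous clusters covered more of the intron than the wild type ones. In endogenous library 1 enriched clusters lay over 2935 of its bases (77.4%) and in library 2 over 1774 (46.8%). For MICAL3 clusters of the wild type libraries it was 750 bases (19.8%) and 799 bases (21.1%). Both endogenous values lay above both wild type values, and the 2 endogenous libraries differed more from each other than the 2 wild type ones did.

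**Figure D2:**
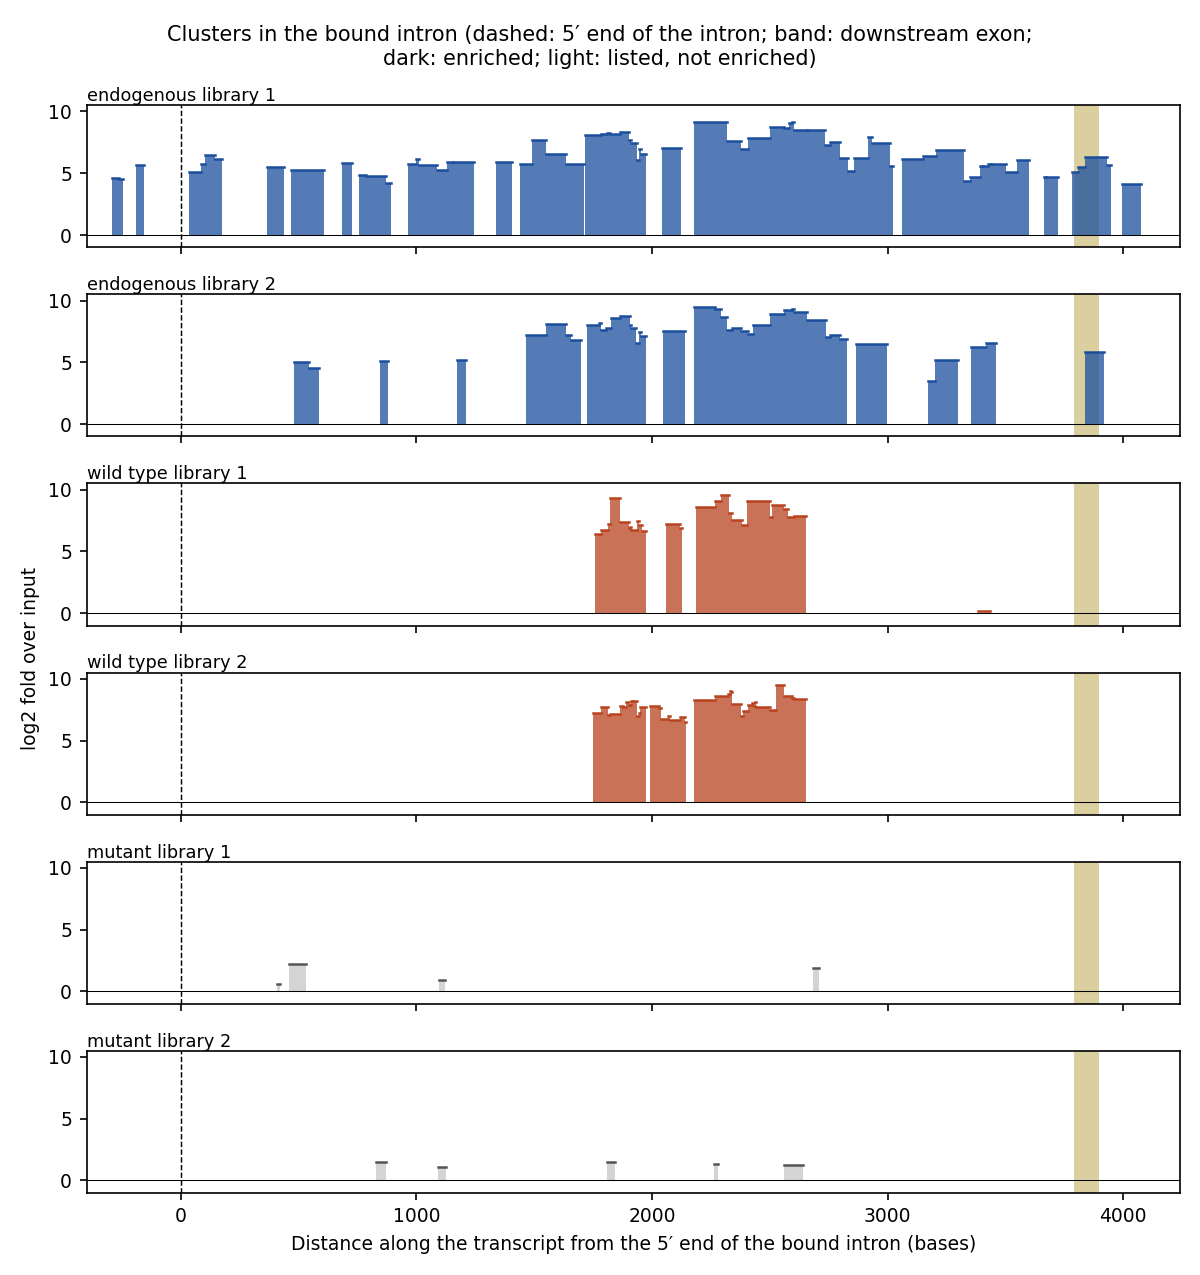
Listed clusters in and next to the bound intron, drawn as bars from start to end at their distance in bases from the intron's 5′ end (x), with the log2 fold over input as height (y) and 1 panel for each library. Dark bars are enriched, light bars are not, and the tan band is the downstream exon. Wild type enrichment is limited to the stretch between 1751 and 2653 bases from the upstream exon, while endogenous enrichment covers 77.4% of the intron in library 1 and 46.8% in library 2, on both sides of that stretch.

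The wild type peaks divided the intron into 3 zones. The middle zone, chr22:18359459-18360360, was 902 bases long, began 1751 bases from the upstream exon and ended 1137 bases from the downstream exon. It held 19 of the 48 reproducible endogenous peaks on MICAL3, a reproducible peak being an entry of the authors' list for both libraries of a group. The median log2 fold over these 19 was 8.11 and 8.06 in endogenous and 7.76 and 7.91 in wild type, and the lowest wild type values were 6.43 and 6.69. With every listed cluster counted, enriched clusters covered 86.0% and 87.8% of its bases in endogenous and 83.1% and 94.1% in wild type. Mutant library 1 listed no cluster there, and mutant library 2 listed 3, which touched 7 of the 19 peaks at a median of 1.28. Since the wild type peaks set the edges of this zone, its wild type coverage is a description.

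On both sides of the middle zone the endogenous and wild type libraries parted. The 1137 bases towards the downstream exon held 11 endogenous peaks, with medians of 6.91 and 6.51 and highest values of 8.52 and 8.41. Wild type library 1 listed 1 cluster there, at 0.19, and wild type library 2 listed none. The 1751 bases towards the upstream exon held 9 endogenous peaks with medians of 5.73 and 5.18, and no wild type cluster was listed over them. The wild type files list only clusters above input, so a missing cluster is either absent or not above input. The endogenous peak at chr22:18359375-18359452 shows the step most sharply. It had 8.52 and 8.41 in endogenous and no cluster in either wild type library, although it ends at the base next to a peak with 7.86 and 8.40 in wild type.

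The other endogenous peaks with the highest folds lay in the middle zone. The highest was chr22:18359794-18359931, with 9.18 and 9.48 in endogenous, 9.11 and 8.57 in wild type and 1.33 in mutant library 2. Next came a pair of 9-base peaks, chr22:18359511-18359519 with 9.14 and 9.33 in endogenous and 7.76 and 8.40 in wild type, and chr22:18359520-18359528 with 9.03 and 9.24 against 7.76 and 8.59. Both had 1.28 in mutant library 2 and no cluster in mutant library 1. Endogenous was the higher group at these sites by the clusters with the highest −log10 p, although the antibodies differ and the folds come from different inputs. At chr22:18359794-18359931 this order depends on the cluster read. Wild type library 1 also had an overlapping cluster there, chr22:18359786-18359817, at 9.54, above both endogenous values.

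At other peaks of the zone the wild type values overlapped the endogenous ones or depended on the cluster read. The peak chr22:18359553-18359609 had 8.74 and 9.24 in endogenous and 8.80 and 9.50 in wild type, so that the groups overlapped. The peak chr22:18359734-18359793 had 7.65 and 7.77 in endogenous and 9.54 and 8.57 in wild type, with no overlap, and no mutant cluster. At chr22:18360247-18360287 the wild type libraries gave 9.32 and 7.17, which enclose both endogenous values (8.19 and 8.55), and mutant library 2 gave 1.52. Over all peaks with a value in both wild type libraries, the endogenous mean minus the wild type mean ran from −1.34 to 2.14 on the log2 scale. The −1.34 belongs to chr22:18359734-18359793 and rests on the clusters that lie mostly in the next peak.

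The bound intron was cut into many abutting clusters. Gaps were measured over the whole gene, between neighbouring enriched members. Of the 40 enriched intron clusters of wild type library 2, 37 were members, because the others overlapped no endogenous MICAL3 cluster. Between centres of neighbouring enriched clusters the median distance was 54 bases in endogenous library 1 (78 gaps), 57 in endogenous library 2 (52 gaps), 28.5 in wild type library 1 (25 gaps) and 20.5 in wild type library 2 (38 gaps). The shortest gaps were 9, 11, 4.5 and 4.5 bases. The clusters directly touched their neighbour at 55 of 78 gaps in endogenous library 1 (70.5%) and 31 of 52 in library 2 (59.6%). In wild type they did so at 21 of 25 (84.0%) and 34 of 38 (89.5%). Over all enriched clusters of each library the shares of touching neighbours were 22.6%, 14.9%, 7.60% and 7.60%. MICAL3 clusters were also short, with median lengths of 43, 42, 24 and 16 bases against 111, 107, 100 and 101 over all enriched clusters.

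**Figure D3:**
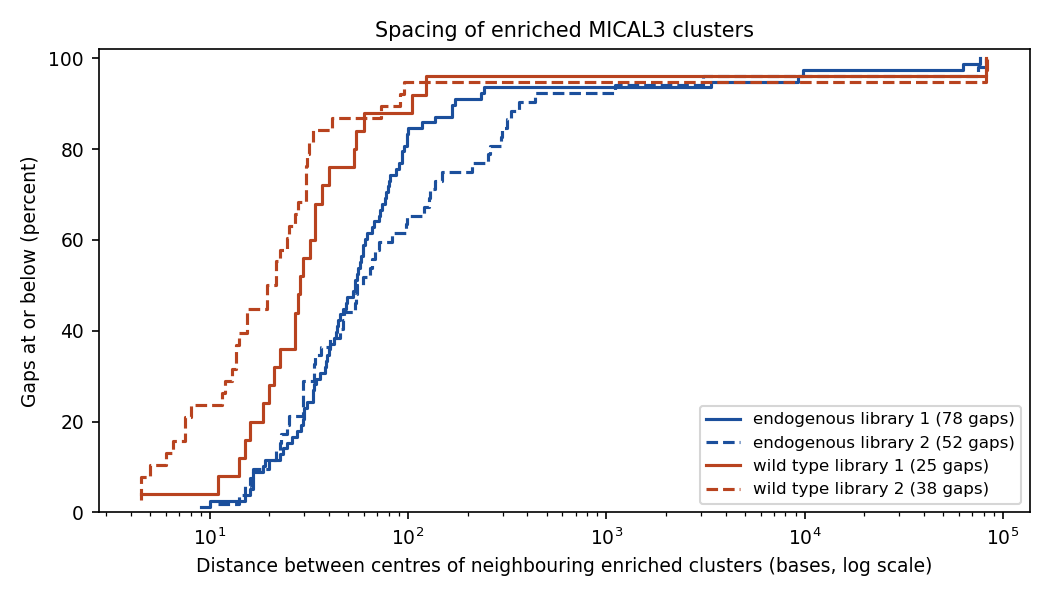
Cumulative percent of gaps (y) between centres of neighbouring enriched MICAL3 clusters by distance in bases on a log scale (x), for the 4 libraries with enriched clusters. The wild type curves reach 50% at 28.5 and 20.5 bases and the endogenous curves at 54 and 57, and each curve ends in at least 1 gap over 1 kb.

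Long gaps were few. Distances of more than 1 kb between neighbouring enriched members numbered 5 and 4 in endogenous and 1 and 2 in wild type. Clusters of the wild type libraries that overlapped no endogenous MICAL3 cluster were left out. In wild type library 2 such a cluster, chr22:18421790-18421887, was enriched and lay within 1 of the 2 gaps. The longest distances between centres were 76707.5, 82310, 82154 and 83559.5 bases, and they were listed in the same order of libraries. In endogenous library 1 and wild type library 1 this gap lay between the site that starts at 18442378 and the next one downstream. In endogenous library 2 and wild type library 2 it lay between the dense block and the site that starts at 18275809. The mutant had no enriched MICAL3 cluster and so no gap to measure.

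The number of MICAL3 peaks therefore depended on how clusters were counted. The 48 reproducible endogenous peaks became 20 when touching peaks were joined, an alternative chosen after seeing the data, and 12 when peaks within 50 bases were joined. The 30 wild type peaks became 6 and 3. By peaks MICAL3 ranked 1 of 3790 genes with an endogenous peak, ahead of SLIT2 with 46 and FHIT with 45. By joined loci it ranked 52, with 39 for FHIT and 28 for SLIT2, and by bases under reproducible peaks it ranked 12, with 2770 against 5707 for FHIT. Within a 5 kb window it held 41 peaks, rank 1, ahead of INPP5A with 36 and FAM120B with 24.

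In the wild type list MICAL3 ranked 1 of 1963 genes by peaks, with lnc-USP6-2 at 13 and DNAJB6 at 11. By joined loci it ranked 104, tied with other genes at 3, and by bases it ranked 3, with 906 against 979 for DIAPH3 and 932 for FHIT. Its 0.1 joined loci for each peak was the lowest of 74 genes with at least 5 wild type peaks, whose median was 0.8. In endogenous the ratio was 0.25, against a median of 0.778 over 729 genes. Per kb of span MICAL3 had 0.248 endogenous peaks, rank 69 of 729, and 0.155 wild type peaks, rank 8 of 74.

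The joined loci show what lay outside the bound intron. Nearest the 5′ end was chr22:18442378-18442575 in a distal intron, where the highest log2 fold was 4.52 and 6.02 in endogenous and 4.74 and 3.61 in wild type, with no mutant cluster. It was the only locus outside the bound intron among the 3 joined wild type loci, and its endogenous and wild type values overlapped. The locus chr22:18365740-18365823 had 5.32 and 4.24 in endogenous, none and 0.25 in wild type, and 0.41 and 1.01 in the mutant.

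The locus over the downstream exon, chr22:18358181-18358301, had 6.29 and 5.87 in endogenous and no cluster in the other 4 libraries. The other 3 loci lay further towards the 3′ end. At chr22:18295123-18295238, at a 5′ splice site, endogenous gave 4.69 and 2.76, wild type had no cluster and mutant library 1 gave 0.34. At chr22:18285142-18285253 endogenous gave 3.83 and 2.79 and wild type 0.90 and 1.44. At chr22:18275809-18275983 endogenous gave 4.76 and 3.35 and wild type 1.41 and 3.02. Endogenous library 2 lay just below the fold threshold at 2 of these 3, and wild type library 2 just above it at the last, with a −log10 p of 3.39.

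Of the loci in the bound intron, chr22:18359101-18360063 joined 17 peaks and reached 9.18 and 9.48 in endogenous, 9.54 and 9.50 in wild type, and 1.93 and 1.33 in the mutant. The locus chr22:18360136-18360671 joined 13 peaks and reached 8.36 and 8.79, 9.32 and 8.20, and none and 1.52. The remaining 4 loci of the intron had endogenous values between 4.77 and 6.91 and no enriched cluster in another group. Endogenous values at these 4 were below those at the 2 large loci in both libraries.

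**Figure D4:**
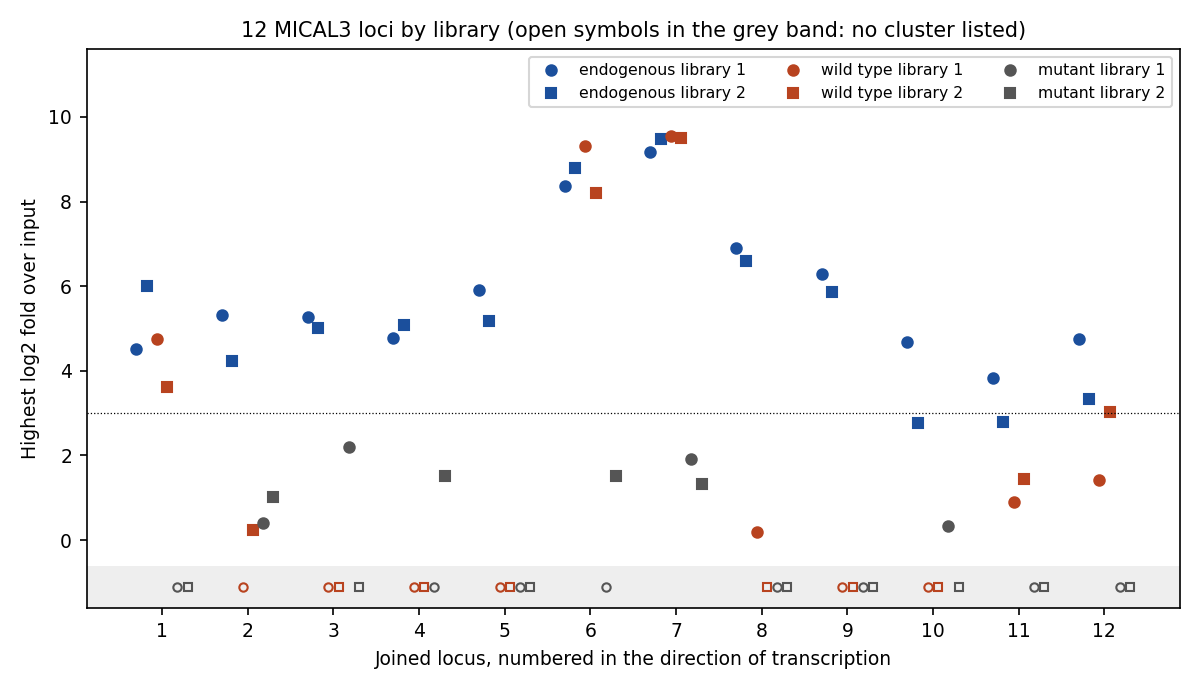
Highest log2 fold over input (y) at each of the 12 joined MICAL3 loci, numbered in the direction of transcription (x), with 1 symbol for each library. Open symbols in the grey band mark libraries that list no cluster. The wild type symbols lie near the endogenous ones at loci 1, 6 and 7 and are absent or low at most others, and no mutant symbol lies above the dotted line at 3.

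Some enrichment was seen in a single library. Endogenous library 2 had 8 enriched clusters between 18364642 and 18367171, at folds from 3.32 to 4.24, where endogenous library 1 listed 1, at 5.32. Endogenous library 1 had 4 enriched clusters between 18294996 and 18295238, where library 2 listed 1 at 2.76. Wild type library 2 had an enriched cluster at chr22:18421790-18421887, with a log2 fold of 4.14 and a −log10 p of 4.49. No endogenous cluster named MICAL3 lay there, and wild type library 1 gave 1.73 at the same place.

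Wild type peaks fell on endogenous ones. All 30 reproducible wild type peaks on MICAL3 shared a base with an endogenous reproducible peak (100%, exact interval 88.4 to 100), against 68.2% of wild type peaks over all genes. In the other direction 21 of 48 endogenous peaks (43.8%, 29.5 to 58.8) overlapped a wild type peak, against 24.3% over all genes. The gene was chosen on both lists, and the many peaks of the middle zone share 1 short stretch, so these counts are a description.

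Cluster edges also matched between libraries. Of the edges of enriched wild type library 1 clusters in the intron that overlapped an enriched cluster of wild type library 2, 17 of 29 lay within 1 base of an edge there (58.6%), against 13.5% over all genes. Between wild type library 1 and endogenous library 2 it was 13 of 29 (44.8%), against 7.71%. Between endogenous libraries 1 and 2 it was 19 of 52 (36.5%), against 8.95%. MICAL3 clusters were shorter than most, and the part of cluster length in these shares was not tested.

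The myc libraries were read at the 48 endogenous peaks, which were defined without them. A cluster was listed at 25 of the 48 in wild type library 1 (52.1%) and at 24 in wild type library 2 (50%), against 84.9% and 81.4% of the 12409 endogenous peaks over all genes. It was enriched at 21 (43.8%) and 22 (45.8%), against 28.4% and 25.6%. These wild type shares belong to a gene chosen on its wild type peaks and are a description. In the mutant a cluster was listed at 5 (10.4%) and 9 (18.8%), against 9.9% and 10.3%, and was enriched at 0 and 0, against 0.21% and 0.234%. The listed share was near the background in mutant library 1 and above it in mutant library 2. There adjoining peaks read the same cluster, so the 9 are not separate counts. Both enriched shares of the mutant were near the background.

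Where a cluster was listed, its median log2 fold at these peaks came to 7.16 and 7.71 for wild type and 0.41 and 1.28 for the mutant. The group means were 7.43 ± 0.39 and 0.84 ± 0.61 (SD, n = 2 libraries each), a difference of 6.59, and the groups did not overlap. The wild type values took part in the choice of the gene, so this difference is given without a test. Over all genes the same difference was 1.72. Each library's median covers the peaks it lists, so the MICAL3 difference does not compare the same peaks. Of the peaks listed in mutant library 1, only chr22:18365740-18365823 had a wild type value. It had 0.25 in wild type library 2, against 0.41 and 1.01 in the mutant. In mutant library 2 the cluster chr22:18359470-18359549, at 1.28, was read at several adjoining peaks. With peaks that had no listed cluster set to 0 the MICAL3 difference was 0.16, because about as many peaks lacked a wild type cluster as had one, and with peaks within 50 bases joined it was 1.91. Each library was made from whole cultures, so fewer transfected cells and less tagged protein or MICAL3 RNA per cell cannot be told apart.

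The share of the 48 peaks with a listed cluster averaged 51.0 ± 1.47% in wild type and 14.6 ± 5.89% in the mutant, a difference of 36.5 percentage points, against 73.1 over all genes. Enriched MICAL3 clusters numbered 32.5 ± 9.19 in wild type and 0 ± 0 in the mutant, which is likewise a description.

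The mutant libraries listed more clusters in the gene than the wild type libraries, at low folds. Between the first and last MICAL3 cluster the mutant pair listed 114 and 167 clusters. The wild type pair listed 53 and 60, and the endogenous pair 110 and 78. The group means were 140.5 ± 37.5 for the mutant and 56.5 ± 4.95 for wild type, and outside the bound intron they were 136 ± 36.8 and 23.5 ± 4.95 (SD, n = 2 libraries each). The span numbers hold the wild type intron clusters on which the gene was chosen, so their difference is given without a test. Outside the intron the exact two-sided permutation test gave p = 0.33, the smallest p that 2 libraries against 2 allow. It cannot pass 0.05, and the wild type numbers there also hold 1 reproducible peak used in the choice. Over the whole span the ratio of mutant to wild type was 2.49. This was above that of 99.1% of the 2725 genes with at least 100 listed myc clusters in their span, whose median was 0.910. On the endogenous MICAL3 clusters alone the ratio was 0.512, against a median of 0.441 over 3863 genes. Over the whole genome the mutant libraries listed 231814 and 272728 clusters, and the wild type libraries listed 226962 and 273269.

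**Figure D5:**
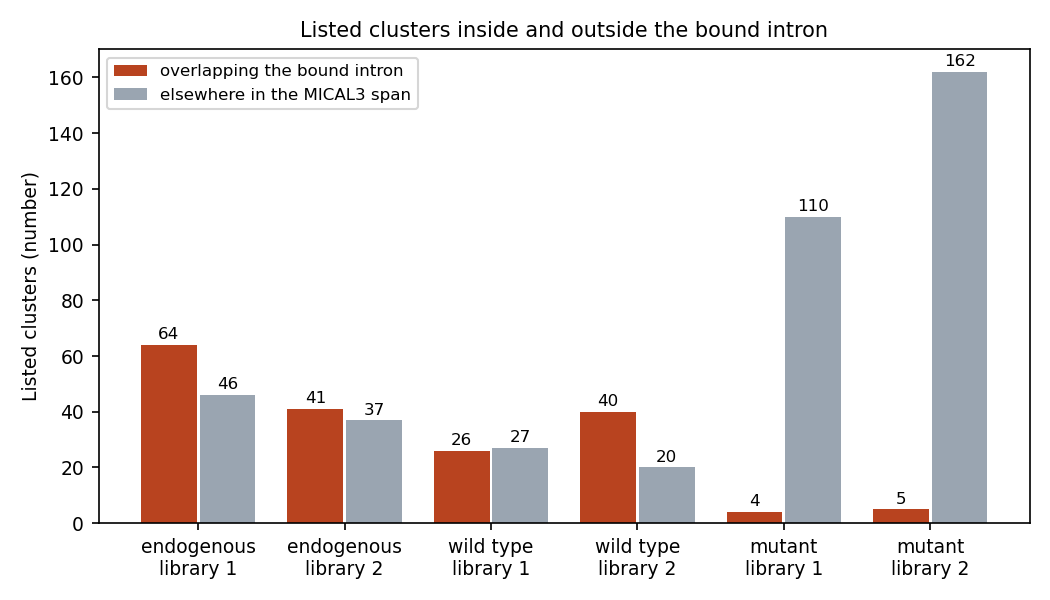
Number of listed clusters (y) overlapping the bound intron and elsewhere in the MICAL3 span in each of the 6 libraries (x). The mutant libraries have 4 and 5 clusters in the intron and 110 and 162 elsewhere, while the wild type libraries have 26 and 40 in the intron and 27 and 20 elsewhere.

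Many of the additional mutant clusters lay in stretches of MICAL3 where the endogenous libraries had no cluster. In the 68569 bases of chr22:18373809-18442377 the mutant libraries listed 37 and 49 clusters and the wild type libraries 3 and 2. In the 48863 bases of chr22:18309172-18358034 they listed 22 and 33, against 1 and 0. In the 21042 bases of chr22:18445378-18466419 they listed 14 and 19, against 4 and 0. The highest mutant folds in the first of these were 2.61 and 3.28, with none enriched. For nearby genes on chromosome 22 the mutant to wild type ratio was 1.04 for BCL2L13, a mitochondrial apoptosis and mitophagy gene, and 1.03 for PEX26, a peroxisome import gene. It was 2.90 for BID, an apoptosis gene with 3 and 7 clusters in wild type and 10 and 19 in the mutant. For TUBA8, a tubulin gene, it was 2.67, with 4 and 2 against 7 and 9. USP18 had 0 and 1 clusters in wild type and 0 and 0 in the mutant. PEX26, BID, TUBA8 and USP18 had fewer listed myc clusters than the 100 asked of the ranked genes.

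Across all regions, limma's lmFit and eBayes compared the log2 folds of wild type and mutant in the 5481 regions with a cluster in all 4 myc libraries. It called 36 higher in wild type (0.657%) and 1 lower (0.0182%) at an adjusted p of 0.05. Only 3 MICAL3 regions could be tested, none in the bound intron, and limma called 0 of them, with 1 at an unadjusted p under 0.05. That region, chr22:18308709-18308830, had 0.31 and 0.33 in wild type and 1.68 and 1.98 in the mutant, a difference of −1.51 (SE 0.48, limma adjusted p = 0.275). At chr22:18466354-18466507 wild type had 2.29 and 2.81 and the mutant 0.14 and 2.28, a difference of 1.34 (SE 0.72, limma adjusted p = 0.483). At chr22:18288776-18288981 the difference was −0.57 (SE 0.53, limma adjusted p = 0.684).

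The middle zone was left out of that fit because mutant library 1 lists no cluster in it. With missing clusters set to 0, limma tested 35 MICAL3 regions and called 0, with 11 at an unadjusted p under 0.05. These 11 went in both directions, with wild type minus mutant differences from 8.67 to −1.51. Most of those lower in wild type had no listed wild type cluster, so their wild type values were filled in as 0. In that fit the region chr22:18359459-18359933 had a wild type mean of 9.30 and a mutant mean of 0.64, a difference of 8.67. Its value in mutant library 1 was a filled-in 0, and its wild type values took part in the choice of the gene. The difference is therefore a description and is given without a test. Over all 778449 regions that fit called 0, while at an unadjusted p under 0.05 it had 36872 higher and 13545 lower. When wild type against mutant was simulated over the 5481 regions, a log2 shift of 1 or 2 was called in 0% of shifted regions, a shift of 3 in 2% and a shift of 4 in 30%.

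By its number of enriched clusters in the 6 libraries, the genes nearest to MICAL3 (79, 53, 26, 39, 0 and 0) were FHIT, SLIT2, ANKRD17, NLGN1 and GPHN, at Euclidean distances of 2.12, 2.35, 2.55, 3.07 and 3.07 in log2(number + 1). FHIT, a diadenosine triphosphate hydrolase gene in a fragile site, had 60, 48, 10, 12, 0 and 0. SLIT2, an axon guidance ligand gene, had 51, 50, 10, 10, 0 and 0. Their peaks were less crowded: the most endogenous peaks in 5 kb was 4 for FHIT, 9 for SLIT2, 7 for ANKRD17, 4 for NLGN1 and 4 for GPHN, against 41 for MICAL3. The spans of FHIT and NLGN1 were 1502 and 885 kb against 194 kb for MICAL3.

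Over all 16424 named genes 23.1% had a reproducible endogenous peak, and the shares in the lists of genes related to MICAL3 ran from 0% to 42.9%, on lists too short to set apart from it. Of 5 other MICAL family genes 1 had such a peak (20%), which was MICAL2, an actin-oxidising paralogue with 3. Of 7 genes for Rab and ELKS partners 3 had one (42.9%), with 11 for ERC1, the ELKS scaffold gene, 4 for ERC2 and 2 for RAB6A, a Golgi GTPase gene. ERC1 also had 4 wild type peaks, and no other member of these lists had any. Of 4 names for methionine sulfoxide reductases, which reverse the oxidation, 1 had a peak (25%), MSRB3 with 4. Of 4 plexin receptor genes 0 had a peak, and of 5 chromosome 22 neighbours 1 did (20%), PEX26 with 2. No member of the lists had a reproducible mutant peak, although PLXNA1, a semaphorin receptor gene, had 2 enriched clusters in mutant library 2.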

How the data were processed

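Per the submitters' processing notes, UMI-tools, cutadapt, STAR and SAMtools were used, with build hg19. The sources used here give neither their versions nor the peak caller. Per the file headers the clusters are input-normalized. The authors deposited for each cluster a log2 fold of immunoprecipitation over its input and a −log10 p capped at 400. The authors' myc tracks also carry a deposited browser score, which entered no comparison. Every cluster in the myc files is above a log2 fold of 0. Reproducible lists combine both libraries of a group. Read depth is unknown, and binomial intervals (95%, exact Clopper-Pearson) cover counting error only.

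The gene name and region class came from the endogenous annotation. A cluster was called enriched when its log2 fold and its −log10 p were both 3 or more. Sites were the endogenous reproducible peaks on MICAL3 clusters, and each library's cluster with the highest −log10 p was read there. Intron edges were solved from the region classes, taking splice zones of 100 bases and proximal zones of 500. The myc clusters of the 4 libraries were merged into 778449 regions, of which limma 3.58.1 (R 4.3.3) tested those with a cluster in all 4, with Benjamini-Hochberg adjustment over all of them. It was tested on simulated data. Mean numbers of listed clusters outside the bound intron were compared by an exact two-sided permutation test (scipy 1.17.1).

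The members, gene lists and tests were chosen with earlier results of these data known. Genes were named as MICAL3, the 5 nearest by enriched cluster counts, and the lists of relatives, partners and neighbours. Sites were named among the highest endogenous and wild type means, those near the threshold, and the ends and most crowded window of the gene. Same-numbered wild type and mutant libraries were not shown to pair. Alternatives were other fold and −log10 p thresholds, other overlap rules, joined sites, missing clusters set to 0, libraries left out and a replicate block. No hg19 genome was used, so peak sequences and motifs were not analysed here.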

Additional observations from a re-analysis of the deposited data

How the results depend on the processing

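Of 72 alternatives, 64 were labelled the same as the main result, 8 moved and 0 reversed. For the wild type minus mutant differences only the sign was judged. A median difference of 0.16 or 1.91 in place of 6.59 thus counts as the same. The difference in enriched clusters could hardly turn negative, with 0 in the mutant. Site numbers, spacings, shares and limma calls were judged by size and have no direction, so the tally is no measure of robustness. The number of sites was 48, and it was 30 with the wild type list, 12 with sites within 50 bases joined and 20 with touching sites joined, which was chosen after seeing the data. The median spacing of sites was 62 bases. It became 26.5 with the wild type list, 821.5 with sites within 50 bases joined, 327 with touching sites joined and 50.75 with clusters enriched in both endogenous libraries. The share enriched in endogenous library 2 was 68.8%, and it became 57.1% with the fold threshold raised to 4. The difference in the percent of sites listed was 16.7 with sites within 50 bases joined. Leaving out each myc library in turn gave differences in enriched clusters from 26 to 39, in the median log2 fold at sites from 6.16 to 7.02 and in the percent of sites listed from 32.3 to 40.6. It left the MICAL3 regions called by limma at 0 to 0. With the replicate block the differences were 32.5 clusters and 6.59, and limma called 0 MICAL3 regions. The deviations of the 2 number pairs correlated at −0.04, so the numbers do not show a pairing.

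Over all regions limma's 36 higher and 1 lower became 71 and 1 with each library centred on its median, 69 and 5 with a filter on −log10 p, 68 and 5 without wild type library 1, and 57 and 1 without wild type library 2. They became 4 and 0 without either mutant library, and 0 and 0 with missing clusters set to 0. The causes were not tested. Depth is unknown, and 2 libraries a group cannot reach an exact p under 0.33.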
